A study of Mus musculus with 16 samples.

Results

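The arrays described here hold the GFP- cells of the mouse olfactory mucosa, 4 pools exposed to octanoic acid and 4 exposed to clean air. They were picked by their titles and make up 8 of the 16 arrays of the study; the other 8 hold the GFP+ cells of the same pools. All 24 mice, of both sexes and aged 7 to 12 weeks, carried the S100a5-tauGFP reporter, which puts a tau-GFP fusion protein under the control of an odor-responsive gene. Each mouse stayed for 40 h in its own chamber, flushed at 3.1 L per min, and from 26 h on received pulses of octanoic acid vapour, or of filtered air in the control group, lasting 10 s and spaced 20 min apart. The dissociated mucosa of 3 mice formed a pool, each pool was split by flow sorting, and 50 to 100 ng of RNA of each sorted sample was labelled for an Affymetrix Clariom S array. Each value is a log2 signal, and values of the 4 pools of a treatment are given in the order of replicates 1 to 4. The replicates are pools of different mice, so a p-value rests on the spread between pools. For each gene limma draws that spread toward the spread of all genes, so intervals of very even genes are wider than their own pools give. Cell numbers, gate limits and the sex make-up of a pool are not given in the sources used here.

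Olfactory sensory neurons carry odorant receptors in their cilia, and a mature neuron expresses a single receptor gene. Odorant binding acts through a G protein and cyclic AMP, and S100a5, which encodes a calcium-binding protein, is expressed in mature neurons in an activity-dependent way. The reporter therefore marks neurons that have been active. How long its signal lasts, and so whether the activity fell within the chamber stay, was not tested. The GFP- sort is what remains: neurons whose receptors were not strongly engaged, immature neurons, the globose and horizontal basal cells that replace neurons, sustentacular cells that ensheath and support them, microvillous cells, gland cells, and blood cells of the tissue. Octanoic acid is a straight-chain fatty acid with a sweaty, rancid smell, and carboxylic acids of this kind are known as ligands of many class I receptors, the family related to the receptors of fish.

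The label of the sort was checked against its markers by limma on the GFP- minus GFP+ difference within each of the 8 pools. At an adjusted p under 0.05, 2651 of 19505 named genes (13.6%) were higher and 2555 (13.1%) were lower in GFP- cells; the lower count depended on scaling and was 12174 with each array centred on its median. S100a5 averaged 1.42 lower in GFP- cells, and 9 of the 11 measured activity-dependent genes were lower, with a median of -1.02. All 14 neutrophil granule genes, all 8 mature neutrophil genes, all 17 cell cycle genes, all 14 monocyte and macrophage genes and 14 of 15 microvillous and tuft cell genes were higher in GFP- cells. Of the immature neuron genes 9 of 16 were higher and 0 lower at that threshold, with a median of 0.63. Members differed: the growth-cone protein gene Gap43 was 2.97 higher, while Dcx and Ebf1 lay at -0.21 and -0.23, uncalled. These medians kept their sign under array centring, quantile normalization and centring on receptors. Genes of mature neurons were still well detected: Omp, the olfactory marker protein, lay between 18.47 and 18.82 on the GFP- arrays, and S100a5 between 14.79 and 15.52. Markers of some cell types that the tissue could hold were dim: none of 9 endothelial genes and 1 of 8 horizontal basal cell genes had a mean above 6.20, taken here as background (the median signal of negative-control probe sets), and Krt5, the basal keratin, lay between 3.47 and 4.31.

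No gene passed the test of octanoic acid against clean air in GFP- cells. In limma's fit 0 of 19505 genes were called at an adjusted p under 0.05 (0%), and the smallest adjusted p was 0.985. At an unadjusted p under 0.05 there were 741 genes (3.8% of those tested), 391 with a higher and 350 with a lower mean after octanoic acid. Whatever their p, 10753 genes had a higher and 8752 a lower mean. For 442 genes (2.27%) the 4 octanoic acid pools did not overlap the 4 clean air pools, 229 above (1.17%) and 213 below (1.09%). The median absolute difference was 0.15, and the median SD between pools of one treatment was 0.29. A mean of 4 pools varies less than a single pool, so these 2 values are not on one scale. For 17751 genes (91%) the 95% confidence interval of the difference lay inside a 2-fold change in both directions, and the median half-width of the interval was 0.45. The olfactory receptors were less tightly bounded, with 723 of 1091 intervals (66.3%) inside a 2-fold change. Leaving out octanoic acid pool 1 raised the unadjusted count to 1399, with 0 called.

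**Figure D1:**
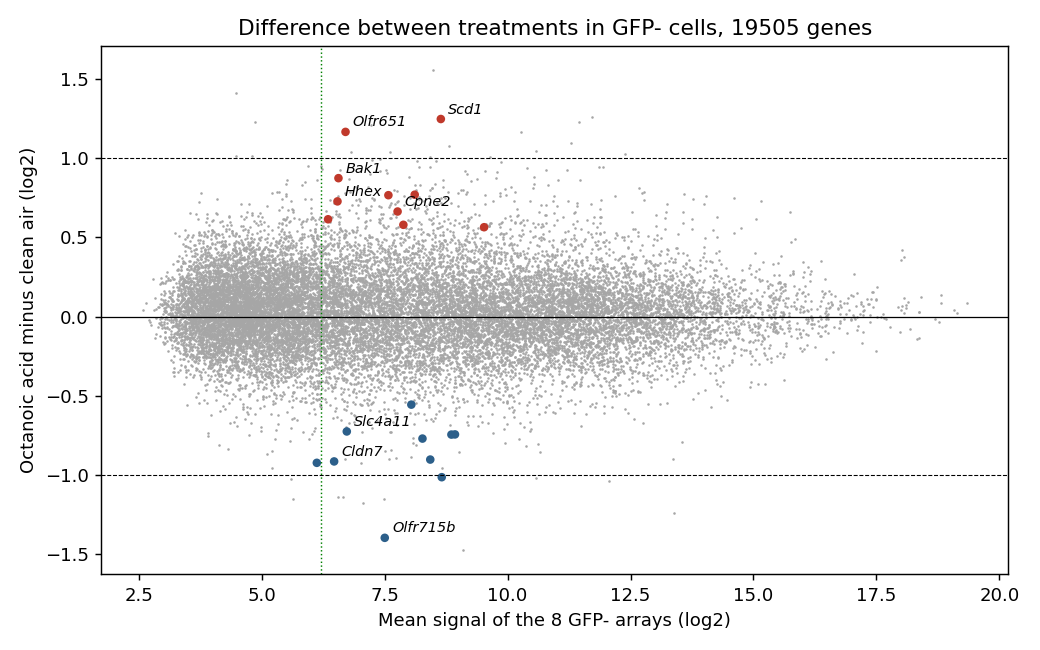
Mean difference between octanoic acid and clean air (log2, vertical axis) against the mean signal of the 8 GFP- arrays (log2, horizontal axis), 1 grey point per gene for 19505 genes. Coloured points are the 10 genes of smallest unadjusted p in each direction among those above background in at least 1 treatment, without Gm and Rik models, the dashed lines mark a 2-fold difference, and the dotted line marks the negative-control median; 31 genes (0.159%) lie beyond 2-fold and none was called.

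Arrays of the same treatment were no more alike than arrays of different treatments. Pearson correlations across genes between pairs of arrays ran from 0.983 to 0.994, and the mean was 0.988 both within a treatment and between treatments. The closest pair was octanoic acid pool 1 with clean air pool 1. Clean air pool 4 had the highest negative-control median, 6.77 against 5.80 to 6.26 on the other 7 arrays, and the lowest mean signal over the olfactory receptors, 8.41 against 8.79 to 9.10. What part this array's background, or the sex of its mice, has in the differences below was not tested. Values without that pool are given for some of the lists only.

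Gene by gene, mature neuron genes had the smallest median SD within a treatment of the 31 lists, 0.16. None of the 23 genes of the list had an unadjusted p under 0.05, all 23 intervals lay inside a 2-fold change, and the median difference was 0.04, against 0.03 over all genes; both medians were below 0 with quantile normalization or receptor centring. The mean of the list was 16.19, 16.02, 16.10 and 16.02 with octanoic acid and 16.13, 16.07, 16.12 and 15.93 with clean air. All 8 pools thus lay within 0.26 of each other. The mean of the cytochrome P450 and conjugating enzyme genes varied less, within 0.19. Omp differed by -0.02 (95% interval -0.35 to 0.32), Gnal, the olfactory G protein alpha subunit, by 0.07 (-0.29 to 0.43), and Cnga2, the subunit of the cyclic nucleotide-gated channel, by -0.05 (-0.39 to 0.29). Ano2, the calcium-activated chloride channel of the cilia, differed by -0.06 (-0.37 to 0.26).

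The gene behind the reporter gave the same picture within the gate. S100a5 read 15.06, 14.79, 14.91 and 15.52 with octanoic acid and 15.25, 15.18, 14.87 and 15.22 with clean air. The treatments overlapped, and the difference was -0.06 (-0.48 to 0.36). Among the 11 activity-dependent genes none had an unadjusted p under 0.05, and the median difference was 0.13, which was just below 0 with receptor centring. Kirrel2, an adhesion molecule of olfactory axons, differed by 0.38 (-0.30 to 1.05).

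Immature neurons and progenitors showed 0 genes called and 0 of 27 with an unadjusted p under 0.05. The median differences were -0.03 over 16 immature neuron genes and 0.07 over 11 neuronal progenitor genes, the latter negative with receptor centring. Without clean air pool 4 these medians were -0.15 and 0.03. Gap43 differed by -0.14 (-0.66 to 0.38). Neurog1, a proneural transcription factor of globose basal cells, differed by -0.11 (-0.69 to 0.47) at levels under the background. Among 8 horizontal basal cell genes, Itga6, an integrin subunit, had the only unadjusted p under 0.05, with a difference of 0.59 (0.05 to 1.13). It read 7.97, 9.16, 8.54 and 8.28 with octanoic acid and 7.85, 7.58, 8.06 and 8.09 with clean air, so the treatments overlapped.

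Genes of dividing cells varied widely between pools: the mean of the list had an SD of 0.69 within a treatment. Its difference between treatments was 0.32. Mki67, a marker of cycling cells, read 9.63, 11.67, 11.24 and 13.08 with octanoic acid and 9.87, 10.64, 11.51 and 12.16 with clean air. Octanoic acid pool 4 was highest and both pools numbered 1 were lowest. The difference was 0.36 with an interval of -1.06 to 1.77. Of 17 cell cycle genes 15 had a higher mean with octanoic acid and the median difference was 0.33, but the median was -0.13 without octanoic acid pool 4 and 0.67 without octanoic acid pool 1. Mcm2, part of the replicative helicase, was the only member with an unadjusted p under 0.05, at 0.70 (0.08 to 1.31).

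**Figure D2:**
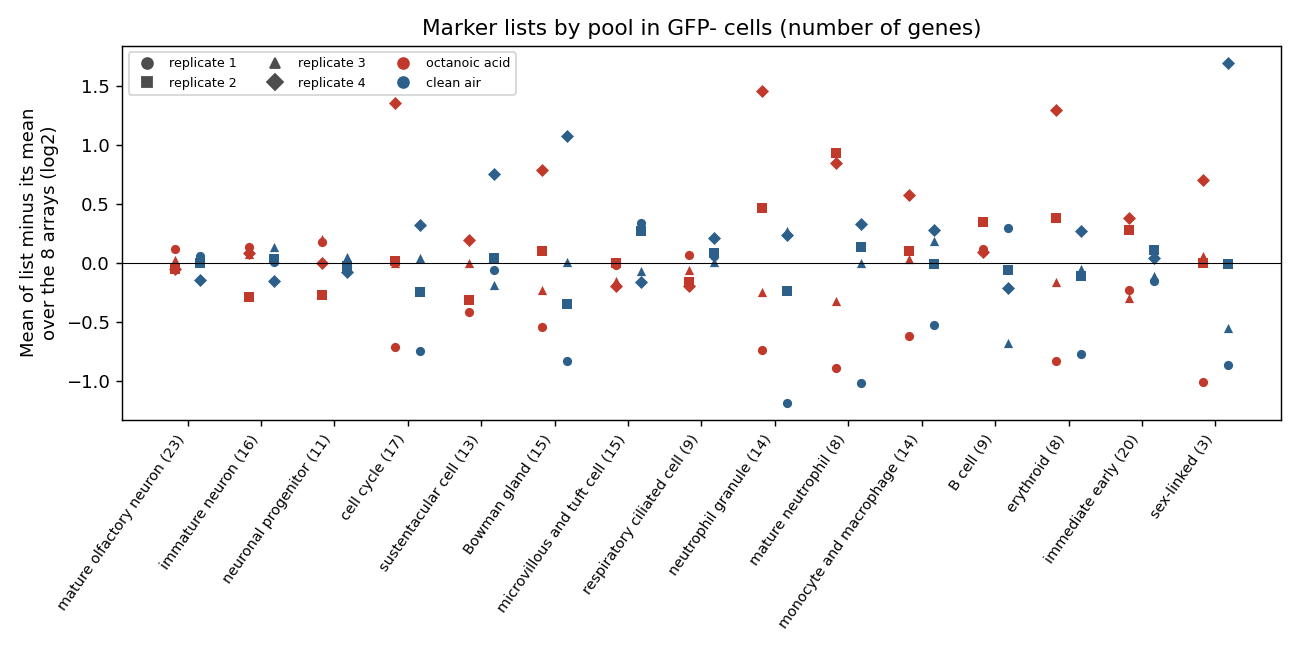
Mean log2 signal of 15 gene lists in each GFP- pool, minus the mean of that list over the 8 arrays (vertical axis); the number of genes is in parentheses, colour gives the treatment and marker shape the replicate. Mature neuron genes lie within 0.26 of each other, neutrophil granule genes span 2.64, and octanoic acid pool 4 is highest for cell cycle, neutrophil granule and erythroid genes.

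Blood cell genes also spread widely from pool to pool. The 14 neutrophil granule genes, which encode antimicrobial proteins and proteases packed during neutrophil maturation, all had a higher mean with octanoic acid, with a median difference of 0.41 that kept its sign under the other scalings. None had an unadjusted p under 0.05, and only 1 of 14 intervals lay inside a 2-fold change. The mean of the list was 11.57, 12.78, 12.07 and 13.77 with octanoic acid and 11.13, 12.08, 12.59 and 12.55 with clean air. The pools overlapped, with octanoic acid pool 4 highest and clean air pool 1 lowest. Without octanoic acid pool 4 the median was 0.23, without clean air pool 1 it was 0.13, and without octanoic acid pool 1 it was 0.73. These 14 genes share the same pools and many the same cells, so they are not 14 independent readings.

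Single granule genes also overlapped between the treatments. Ltf, lactotransferrin, read 12.74, 14.44, 13.46 and 15.22 with octanoic acid and 11.21, 13.81, 13.97 and 13.77 with clean air, a difference of 0.77 (-0.63 to 2.17). Ngp, neutrophilic granule protein, read 17.53, 18.56, 18.02 and 18.82 against 16.89, 18.10, 18.11 and 18.14, a difference of 0.42 (-0.31 to 1.16). Mpo, myeloperoxidase, which is made early in neutrophil development, read 10.08, 9.55, 9.97 and 13.27 against 10.73, 9.45, 11.03 and 11.56. Its difference was 0.02 (-1.55 to 1.60), and only octanoic acid pool 4 stood apart. In these bulk samples more cells of a type and more RNA per cell cannot be told apart.

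The other blood lists followed a similar pattern of overlap. The 8 mature neutrophil genes had a median difference of 0.34 and 0 with an unadjusted p under 0.05; the median was 0.02 without clean air pool 1 and 0.74 without octanoic acid pool 1. The 8 erythroid genes all had a higher mean with octanoic acid, median 0.29, and the list read 8.79, 10.00, 9.46 and 10.91 against 8.85, 9.51, 9.57 and 9.89. That median was 0.03 without octanoic acid pool 4 and 0.75 without octanoic acid pool 1. The 9 B cell genes had a median of 0.30, which was 0.08 without clean air pool 3 and 0.04 with values floored at the background. Cd79a, a signalling chain of the B cell receptor, differed by 0.91 (0.19 to 1.62), reading 10.28, 10.73, 9.77 and 10.17 against 10.36, 9.24, 8.92 and 8.79. Clean air pool 1 lay among the octanoic acid pools. The 11 T and NK cell genes had a median of 0.18, or 0.39 without octanoic acid pool 1, and the 6 MHC class II genes one of 0.12, the latter -0.01 with receptor centring.

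Monocyte and macrophage genes had no common direction. Of 14 genes 8 had a higher and 6 a lower mean with octanoic acid, and the median was 0.06, or -0.07 with receptor centring. The complement genes C1qa and C1qb, typical of tissue macrophages, had unadjusted p under 0.05 with lower means. C1qa read 6.75, 6.95, 7.60 and 7.05 with octanoic acid and 7.33, 7.86, 7.58 and 7.97 with clean air, a difference of -0.60 (-1.08 to -0.12). C1qb differed by -0.55 (-0.99 to -0.12). Octanoic acid pool 3 overlapped the clean air pools for both genes, which encode chains of the same protein.

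Sustentacular genes had the most negative median of the 31 lists. Of 13 genes 10 had a lower mean with octanoic acid, with a median difference of -0.27 that stayed negative under the other scalings and when any pool was left out. It was -0.08 with values floored at the background. Cyp2a5 and Sec14l3 had an unadjusted p under 0.05. Cyp2a5, a cytochrome P450 that metabolizes inhaled compounds, read 12.82, 12.69, 13.45 and 13.64 with octanoic acid and 13.76, 13.69, 13.29 and 15.05 with clean air, a difference of -0.79 (-1.57 to -0.02). Sec14l3, a lipid-binding protein of the secretory epithelium, read 9.26, 9.41, 9.74 and 9.76 against 9.93, 10.60, 9.60 and 11.24, a difference of -0.80 (-1.49 to -0.11). Clean air pool 4 was highest for both, and clean air pool 3 overlapped the octanoic acid pools. Leaving out 1 pool moved the list median between -0.39, without octanoic acid pool 4, and -0.20, without octanoic acid pool 2; without clean air pool 4 it was -0.21.

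Gland and microvillous genes differed by pool. The 15 Bowman gland genes had a median difference of -0.03 and 0 with an unadjusted p under 0.05. The median was 0.61 without clean air pool 4. This list shares Ltf with the neutrophil granule list. Against GFP+ cells, 5 of its genes were higher and 1 was lower in GFP- cells at limma's adjusted p under 0.05. Obp2a, an odorant-binding protein secreted into mucus, had the largest SD within a treatment, 1.90, of the genes above the 95th percentile of the negative controls. It read 11.48, 11.92, 11.90 and 14.17 with octanoic acid and 10.60, 10.27, 12.43 and 15.49 with clean air. Pool 4 of each treatment was highest, and the difference was 0.17 (-1.99 to 2.33). Of 15 microvillous and tuft cell genes, Cftr, the chloride channel of an ionocyte-like microvillous cell, differed by -0.89 (-1.76 to -0.01), reading 8.33, 7.36, 7.36 and 7.36 against 9.50, 8.13, 8.91 and 7.41. Coch, in the same list, read 13.54, 10.48, 11.04 and 11.10 against 13.96, 13.64, 11.32 and 11.39. It was high in 3 pools, octanoic acid pool 1 and clean air pools 1 and 2, and its difference was -1.04 (-2.63 to 0.56). Trpm5, the cation channel of tuft-type microvillous cells, differed by 0.09 (-0.56 to 0.75).

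Of 9 respiratory ciliated cell genes, 7 were lower and 0 higher in GFP- than in GFP+ cells at limma's adjusted p under 0.05. Their median GFP- minus GFP+ difference was -0.47. The list thus does not mark cells particular to this sort, and which cells give its signal was not tested. For octanoic acid against clean air, Dnah11, a ciliary dynein heavy chain, had the only unadjusted p under 0.05, at -0.54 (-1.06 to -0.03). Its pools did not overlap: 13.12, 12.92, 13.02 and 12.86 with octanoic acid and 13.15, 13.49, 13.20 and 14.25 with clean air, where pool 4 stood highest. Col3a1, the fibrillar collagen, also did not overlap, at 0.54 (0.17 to 0.91), but every array was below background, between 3.58 and 4.42.

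**Figure D3:**
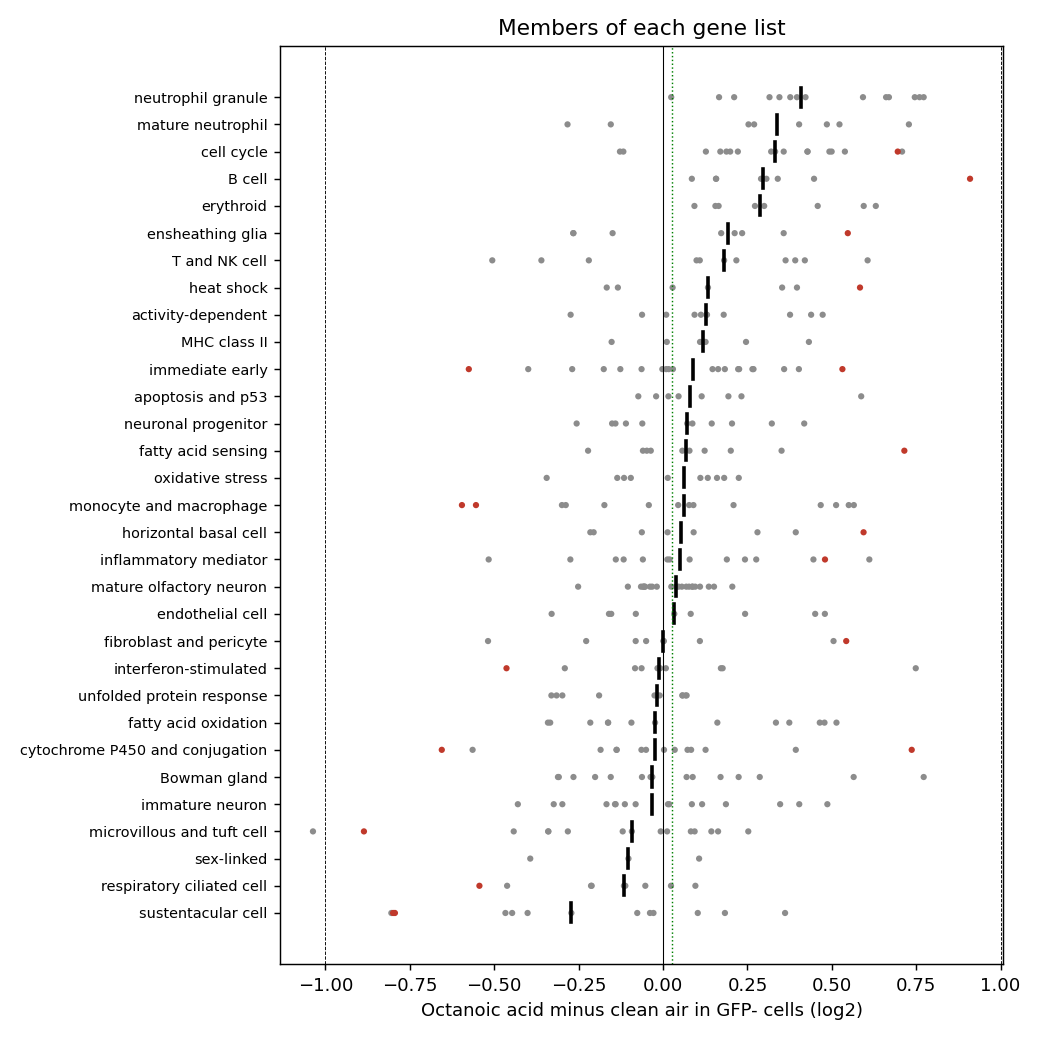
Difference between octanoic acid and clean air in GFP- cells (log2, horizontal axis) for each member of 31 gene lists, 1 point per gene, with the list median as a black bar. Red points have an unadjusted p under 0.05, none was called, the dotted line is the median of all genes and the dashed lines mark 2-fold; medians run from -0.27 for sustentacular genes to 0.41 for neutrophil granule genes.

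Response pathways likewise gave no called gene. Of 20 immediate early genes, which are induced quickly by stimulation and also by tissue dissociation, 1 had a higher and 1 a lower mean at an unadjusted p under 0.05, and the median was 0.09, or -0.04 with receptor centring. Fos differed by 0.18 (-0.48 to 0.85) and Egr1 by 0.27 (-0.32 to 0.85). Atf3, a stress-induced transcription factor, was the one that did not overlap: 10.47, 10.90, 10.92 and 10.81 with octanoic acid and 11.15, 11.33, 11.50 and 11.42 with clean air. Its difference was -0.58 (-0.94 to -0.21), and in GFP+ cells it was -0.50. The GFP+ cells came from the same pools, so the second value is not an independent reading. The interval lay inside 2-fold for 10 of 10 oxidative stress genes and 11 of 11 unfolded protein response genes, with medians of 0.06 (negative with receptor centring) and -0.02. Heat shock, apoptosis, inflammatory and interferon lists held between 0 and 1 gene with an unadjusted p under 0.05: Hspa1b at 0.58 (0.00 to 1.16), Socs3 at 0.48 (0.05 to 0.91) and Usp18 at -0.46 (-0.92 to -0.00).

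Genes that handle or sense fatty acids were described because the odorant is itself a fatty acid. None of 13 fatty acid oxidation genes had an unadjusted p under 0.05, 6 had a higher and 7 a lower mean, and the median was -0.02. Of 10 fatty acid sensing genes, Ffar2, a receptor for short-chain fatty acids found on neutrophils among other cells, read 6.44, 6.80, 7.09 and 6.98 with octanoic acid and 5.60, 6.35, 6.24 and 6.27 with clean air. The pools did not overlap and the difference was 0.71 (0.25 to 1.18), close to the background on most arrays. Cd36, a fatty acid transporter expressed in some olfactory neurons, differed by -0.05 (-0.46 to 0.36). Of 14 genes for cytochromes P450 and conjugating enzymes, Gsto1 differed by 0.74 (0.10 to 1.37) and Fmo1, a flavin monooxygenase, by -0.66 (-1.13 to -0.18), and both treatments overlapped for each.

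Olfactory receptors were measured for 1091 genes, 931 of them with a mean above background. None was called. At an unadjusted p under 0.05, 42 had a higher and 17 a lower mean with octanoic acid, 5.41% of the receptors together, against 2% higher and 1.79% lower over all genes. The median difference was 0.10, and it was -0.03 without clean air pool 4. Centring on the receptors sets the receptor median near 0 by construction, so that scaling says nothing of its direction. That pool thus decided the direction of the list, and the split of class II receptors turned with it: 31 higher and 16 lower with all pools, 10 higher and 30 lower without clean air pool 4. The 958 class II receptors had a median of 0.09, or -0.06 without clean air pool 4.

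The 122 class I receptors had 10 genes with a higher and 0 with a lower mean at an unadjusted p under 0.05 (8.2%, against 3.8% of all genes). A higher mean was found for 95 of them, against 695 of all 1091 receptors and 10753 of 19505 named genes. These receptors were read on the same pools, so they are not independent readings. The 95% interval lay inside a 2-fold change for 80 of the 122 (65.6%). The class I median difference was 0.19, and 0.06 relative to the receptor median of each array. In GFP+ cells of the same pools it was -0.11. The mean over class I receptors was 8.12, 7.82, 7.57 and 7.84 with octanoic acid and 8.05, 7.51, 7.48 and 7.41 with clean air. Clean air pool 1 was above 3 of the 4 octanoic acid pools. Leaving out 1 pool moved the median between 0.12 and 0.37 and the count of higher means at that p between 5 and 27, the last without clean air pool 1. No test of class I against class II was made, and with receptor centring 2 class I receptors had a higher mean at that p.

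**Figure D4:**
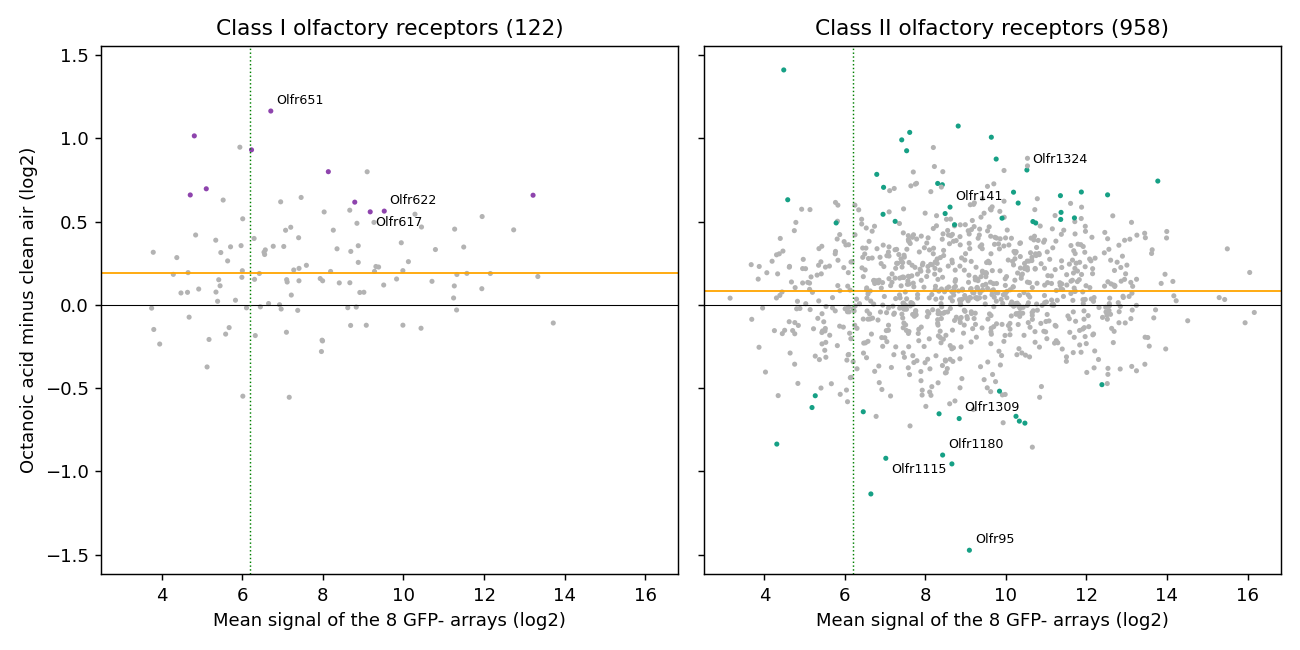
Difference between octanoic acid and clean air (log2, vertical axis) against the mean signal of the 8 GFP- arrays (log2, horizontal axis) for 122 class I and 958 class II receptors. Coloured points have an unadjusted p under 0.05, the orange line is the class median (0.19 and 0.09), the dotted line is the negative-control median, and the named receptors have the smallest p above background.

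Among receptors above background in at least 1 treatment, those of smallest p with a higher mean were Olfr651, Olfr622, Olfr617, Olfr141 and Olfr1324, the first 3 of class I. Olfr651 read 7.26, 6.99, 7.12 and 7.77 with octanoic acid and 6.54, 5.88, 6.64 and 5.42 with clean air, a difference of 1.16 (0.55 to 1.78), with the clean air mean under the background. In GFP+ cells its difference was -0.67 (-1.46 to 0.13). Olfr622 lay between 9.64 and 9.91 with octanoic acid and reached at most 9.41 with clean air, a difference of 0.56 (0.22 to 0.91), and Olfr617 differed by 0.56 (0.20 to 0.92). The pools of the treatments did not overlap for these 3 genes or for Olfr141, which differed by 0.59 (0.20 to 0.98). Olfr1324 differed by 0.81 (0.22 to 1.40) with overlap. The adjusted p of each was 0.985 in limma's fit. Receptor genes are closely related in sequence, and how far related transcripts share a probe set's signal was not tested.

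Under the same limit, the receptors of smallest p with a lower mean were Olfr1180, Olfr715b, Olfr1115, Olfr1309 and Olfr95. Olfr1180 read 7.81, 8.35, 7.54 and 8.20 with octanoic acid and 8.62, 9.39, 8.65 and 8.85 with clean air, a difference of -0.90 (-1.41 to -0.39). Its pools did not overlap, nor did those of Olfr1115 at -0.92 (-1.55 to -0.29) or Olfr1309 at -0.68 (-1.15 to -0.22). Olfr715b differed by -1.40 (-2.26 to -0.53) in GFP- cells and by -0.80 (-1.52 to -0.09) in GFP+ cells of the same pools. Olfr95 had the most negative difference of all named genes, -1.47 (-2.53 to -0.42), and read 6.75, 8.60, 8.81 and 9.26 against 9.96, 9.21, 10.65 and 9.49. Octanoic acid pool 1 was the lowest by far and pool 4 overlapped the clean air pools. The 15 trace amine-associated receptors, a separate family of olfactory receptors, had 0 genes with an unadjusted p under 0.05 and a median of -0.07. That median was -0.26 without clean air pool 4.

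Among genes above background in at least 1 treatment, gene models named Gm or Rik left out, the 10 of smallest p with a higher mean were Hhex, Olfr651, Cpne2, Cd99, Armc7, Scd1, Gab1, Olfr622, Bak1 and Mybbp1a, each with an adjusted p of 0.985. Hhex, a homeobox transcription factor, read 6.94, 6.98, 6.76 and 6.94 with octanoic acid and 6.37, 5.95, 6.13 and 6.27 with clean air. The pools were well apart, with a difference of 0.73 (0.38 to 1.07), at levels close to the background. Scd1, the stearoyl-CoA desaturase that makes monounsaturated fatty acids, had the largest difference of the 10, 1.25 (0.51 to 1.98). It read 9.27, 9.85, 8.80 and 9.14 against 8.92, 8.22, 7.71 and 7.23, and clean air pool 1 overlapped octanoic acid pool 3. Leaving out 1 pool moved the difference of Scd1 between 0.98 and 1.55.

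The other members of that set that are not receptors differed by 0.58 to 0.87. Cpne2, a copine that binds phospholipids with calcium, read 7.89, 8.12, 8.11 and 8.26 with octanoic acid and 7.29, 7.26, 7.70 and 7.48 with clean air. Cd99, a surface protein used by leukocytes in crossing the endothelium, read 7.50, 8.23, 7.97 and 8.14 against 7.08, 7.48, 7.15 and 7.07. Bak1, a pro-apoptotic member of the Bcl-2 family, read 6.37, 7.48, 6.78 and 7.37 against 5.89, 6.33, 6.26 and 6.01. The treatments did not overlap, although for Cd99 and Bak1 the lowest octanoic acid pool lay just above the highest clean air pool. Gab1, a docking protein of receptor tyrosine kinases, differed by 0.61 (0.25 to 0.98) and Mybbp1a, a nucleolar protein, by 0.58 (0.22 to 0.94).

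In the same set, the 10 genes of smallest p with a lower mean were Cldn7, Olfr1180, Atpsckmt, Slc4a11, Rab24, Rmdn1, Olfr715b, Ccdc174, Ppp1r12b and Parp14. Cldn7, a claudin of epithelial tight junctions, had an unadjusted p of 0.00057 and an adjusted p of 0.985 in limma's fit. It read 6.32, 5.82, 6.27 and 5.65 with octanoic acid and 6.81, 6.90, 6.83 and 7.18 with clean air, a difference of -0.91 (-1.34 to -0.49), with the octanoic acid mean under the background. Rab24, a GTPase linked to autophagy, lay between 8.15 and 8.83 with octanoic acid and between 8.98 and 9.66 with clean air. Rmdn1 differed by -1.01 (-1.63 to -0.40), and clean air pool 3 overlapped octanoic acid pool 1. Parp14, an ADP-ribosyltransferase of the interferon response, read 7.80, 7.98, 7.57 and 7.70 against 8.17, 8.30, 8.33 and 8.49. Its pools did not overlap, and its difference of -0.56 (-0.90 to -0.21) was the smallest of the 10. Slc4a11, a membrane transporter, differed by -0.72 (-1.16 to -0.29).

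**Figure D5:**
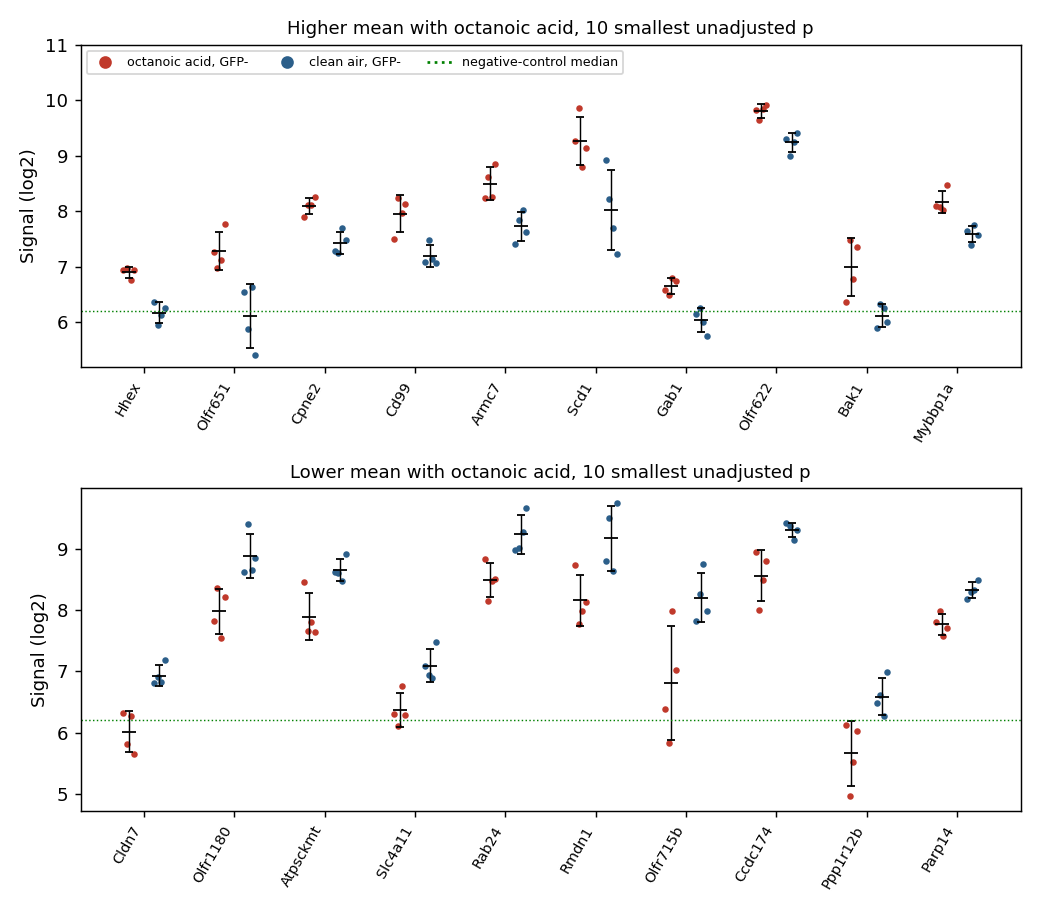
Log2 signal in each GFP- pool for the 10 genes of smallest unadjusted p with a higher mean (upper panel) and a lower mean (lower panel) after octanoic acid, among genes above background in at least 1 treatment, without Gm and Rik models. Points are pools, the black bar is the mean with its SD over 4 pools, and the dotted line is the negative-control median; every gene had an adjusted p of 0.985, and Scd1, Rmdn1 and Olfr715b overlap between treatments.

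Whether the effect of octanoic acid differed between GFP- and GFP+ cells was tested on the GFP- minus GFP+ differences of the pools. In limma's fit 0 of 19505 genes were called (0%), the smallest adjusted p was 0.940, and 871 genes (4.47%) had an unadjusted p under 0.05. With values under the background raised to it, 1 gene was called, Zfp874a, a zinc finger gene, at an adjusted p of 0.0380 against 0.940 as deposited. It is named because of that count, after its values were seen, and its effect in GFP- cells minus that in GFP+ cells was -0.53 in both. Its GFP- minus GFP+ difference was -0.63, -0.68, -0.70 and -0.62 with octanoic acid and -0.19, -0.11, -0.15 and -0.06 with clean air.

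With the same limits on background and gene models, the 5 genes of smallest p in that test were Aadacl4fm4, Scd1, Olfr243, Crot and Olfr651. Scd1 differed by 1.25 in GFP- cells and by -0.07 in GFP+ cells, a difference of effects of 1.31 (0.68 to 1.94). Crot, the carnitine octanoyltransferase of peroxisomes, which acts on medium-chain acyl groups, read 8.49, 8.25, 7.73 and 8.99 with octanoic acid and 7.81, 7.93, 8.48 and 8.18 with clean air in GFP- cells. Those pools overlapped, with a difference of 0.26 (-0.31 to 0.83). In GFP+ cells the difference was -0.76 (-1.26 to -0.26), and the difference of effects was 1.02 (0.51 to 1.54). Olfr651 had a difference of effects of 1.83 (0.90 to 2.76), Olfr243, a class I receptor, 1.42 (0.73 to 2.11), and Aadacl4fm4 -1.47 (-2.16 to -0.79). None of the 5 was called, and the adjusted p of each was 0.940.

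The 3 measured Y-linked genes gave one more reading of how pools differed. Eif2s3y, a translation initiation factor subunit, read 8.27, 9.27, 9.34 and 9.63 with octanoic acid and 7.95, 9.31, 8.51 and 11.14 with clean air. Kdm5d, a histone demethylase, was also highest in clean air pool 4, at 8.99 against 5.65 to 7.85 elsewhere. Uty lay between 8.67 and 10.59, with clean air pool 4 again highest. The mean over the 3 genes spanned 2.71 over the 8 pools, and the treatments overlapped for each gene. The mice were of both sexes, and the sex make-up of a pool is not given in the sources used here. What part it has in the differences above, including those that turned with clean air pool 4, was not tested.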

How the data were processed

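The values used are log2 signals that the authors deposited for every probe set; the submitters' processing notes name Affymetrix Expression Console. The version, summary method, background step and normalization are not given in the sources used here, and that the scale is log2 was judged from the range of the signals. Of 28846 probe sets 6640 were controls and 2634 had no gene symbol. The brightest probe set was kept where a gene had several, which left out 67 and gave 19505 genes, all matched by Entrez identifier to RefSeq's GRCm38.p6 gene table. Receptor class came from MOR family names, up to 42 for class I and from 100 for class II; 11 receptors had none here.

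limma 3.58.1 (R 4.3.3; lmFit, eBayes, two-sided) compared 4 octanoic acid with 4 clean air pools, with Benjamini-Hochberg adjustment over all genes, and was tested on simulated data. The 5222 negative-control probe sets set the background by their median; their 95th percentile was 10.4, so a signal above the median does not show expression. Array number limits the precision.

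Genes and lists were chosen with earlier results of these data known. Named were the 10 smallest p in each direction, 5 receptors in each direction, 5 for the difference between sorts, 10 largest SD, S100a5, Y-linked genes and list members, leaving out Gm and Rik models and genes at or under the background in both treatments (list members excepted).

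Octanoic acid and clean air pools share replicate numbers. The deviations of same-numbered GFP- arrays from their treatment means correlated at 0.408, 0.100, -0.0986 and 0.153, so the numbers were not taken to pair the pools.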

Additional observations from a re-analysis of the deposited data

Results flagged for a closer look

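In 8 of 160 groups of 4 pools a single pool stood farther from the others than Dixon's 95% limit allows, and chance gives about 1 in 20 groups, or 5%. Octanoic acid pool 4 held 3 of them: Mpo read 13.27 against 9.55 to 10.08 in the other 3 pools, Obp2a 14.17 against 11.48 to 11.92, and Mybbp1a 8.47 against 8.03 to 8.10. Octanoic acid pool 2 held 2: the mean of the immature neuron genes was 12.04 against 12.40 to 12.47, and that of the B cell genes 6.91 against 6.66 to 6.68. Among the clean air pools, Hp, haptoglobin, read 10.57 in pool 1 against 12.75 to 12.92, the class I receptor mean was 8.05 in pool 1 against 7.41 to 7.51, and the mean of the apoptosis and p53 genes was 9.34 in pool 2 against 9.69 to 9.76.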

How the results depend on the processing

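No gene was called for octanoic acid against clean air in GFP- cells under any alternative run, with smallest adjusted p from 0.490 to 1.00. Genes with an unadjusted p under 0.05 numbered 325 with receptor centring, 408 with genes above background only and 544 to 1399 with 1 pool left out (lowest without clean air pool 2, highest without octanoic acid pool 1). With array weights they were 887. Genes without overlap numbered 265, 249 and, floored at the background, 252. For the difference between sorts, 561 genes had such a p with genes above background only and 577 to 1722 with 1 pool left out (lowest without clean air pool 4, highest without octanoic acid pool 2), and 1 was called with flooring. With the replicate block, 0 genes were called in both tests, and 1032 and 1209 had an unadjusted p under 0.05; 4 of 8 arrays had their best partner under their own number. Genes lower in GFP- than in GFP+ cells numbered 12174 with array centring and 4621 with quantile normalization.

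Receptor centring moved the median of all genes from 0.03 to -0.10, so list medians are read against that shift. It took the medians of mature neuron genes to -0.09, ensheathing glia 0.06, ciliated cells -0.25, endothelial -0.10, oxidative stress -0.07, fatty acid sensing -0.06, P450 and conjugation -0.15 and vomeronasal receptors -0.07. With genes above background only, the horizontal basal cell list came to 0.59, ensheathing glia to -0.27 and fatty acid sensing to 0.35, on 1, 1 and 3 genes, and the endothelial list had no gene left and so no value; with flooring ensheathing glia came to 0.00. Leaving out 1 pool took ciliated cells as far as -0.25, ensheathing glia to 0.10 and the 11 receptors without a class to -0.07. The other 515 list medians and 772 values of named genes under an alternative moved by less than the spread between pools or kept their direction and stayed uncalled.

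For a gene of typical spread, the 95% interval, which is not adjusted for the number of genes, reached about 0.45 (log2) to each side. Larger differences also went uncalled after adjustment over all genes. Hhex, at 0.73, had an adjusted p of 0.985 in limma's fit. For genes near background the arrays give little more than a bound.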

Other observations

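The largest mean differences, which were named after their values were seen, included several myeloid genes. Of 31 genes beyond 2-fold, 19 had a higher and 12 a lower mean with octanoic acid, and none was called. Csf2ra, the GM-CSF receptor alpha chain of myeloid cells, had the largest difference, 1.56 (95% interval 0.28 to 2.83), reading 8.55, 9.80, 7.75 and 10.93 with octanoic acid and 7.48, 6.96, 8.59 and 7.79 with clean air. The treatments overlapped. Cd177, a neutrophil surface protein, read 10.11, 12.91, 11.82 and 13.44 against 8.94, 11.14, 11.88 and 11.39, and Itgam, the integrin alpha chain of neutrophils and macrophages, read 11.58, 13.54, 12.31 and 14.17 against 10.53, 11.84, 12.89 and 12.25. For Csf2ra, Cd177 and Itgam octanoic acid pool 4 was highest, as it was for the neutrophil granule list.

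On the lower side, Rmrp, the RNA component of a mitochondrial and nucleolar RNA-processing enzyme, read 14.10, 12.67, 11.81 and 12.49 with octanoic acid and 14.38, 13.71, 13.93 and 14.01 with clean air, a difference of -1.24 (-2.10 to -0.39). Octanoic acid pool 1 lay among the clean air pools. Chmp1b, an ESCRT-III subunit, differed by -1.02 and lay between 9.92 and 10.31 in 6 pools but was 11.19 and 12.75 in clean air pools 2 and 4. Tbrg3 was also highest there, at 8.26 and 9.91 in the same pools against 6.44 to 7.31 in the other 6.

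Among the genes that varied most within a treatment were 3 secreted proteins of the nasal glands and mucosa, Obp2a, Bpifb3 and Bpifb9b. Bpifb3 read 10.90, 12.30, 12.14 and 13.48 with octanoic acid and 10.33, 11.82, 12.63 and 14.28 with clean air, with pool 4 highest in each treatment, as for Obp2a. Bpifb9b was different: 12.37, 14.65, 13.25 and 11.40 against 12.95, 14.99, 11.78 and 15.55, lowest in octanoic acid pool 4. Gpx6, a glutathione peroxidase of the olfactory mucosa, read 10.18, 11.27, 11.04 and 12.70 against 9.69, 10.34, 11.68 and 13.08, and pool 4 was highest in each treatment. Car1, carbonic anhydrase of red cell precursors, ran from 8.70 in octanoic acid pool 1 to 12.68 in octanoic acid pool 4.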
